A study of Mus musculus with 18 samples.

Results

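The 10 genes described here encode cytokines that macrophages release to drive or restrain inflammation: Tnf, Il6, Il10, Il12a, Il12b, Il15, Il27, Il1a, Il1rn and Tgfb1. They are listed symbols in a table of 21954 genes, and the list was drawn up with earlier results of these data known. RNA was sequenced from bone marrow derived mouse macrophages that were wild type (called control in the titles) or carried a macrophage knockout of L13a, a protein of the large ribosomal subunit encoded by Rpl13a. Each genotype was left untreated, treated with IFN, whose type the labels do not name, or treated with IL4. There were 3 libraries in each of the 6 groups (18 libraries), and a library is called by its title's number: 1 to 3 untreated, 4 to 6 with IFN and 7 to 9 with IL4. The labels give no strain, age, dose or duration, do not say how the knockout was made, and do not give the animal or culture behind each library, so the p-values measure the spread between these libraries, which may be technical.

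Macrophages release tumor necrosis factor (Tnf), interleukin 6 (Il6) and interleukin 1 alpha (Il1a) early in inflammation, and these act on many cell types to raise inflammatory genes. Il12a and Il12b encode the subunits of interleukin 12, which with interleukin 15 (Il15) and interleukin 27 (Il27) acts on T and NK cells. Il10 and Tgfb1 encode cytokines that restrain macrophages and T cells, and Il1rn encodes the receptor antagonist that blocks interleukin 1. Interferon-gamma is known to move macrophages toward an inflammatory state and IL4 toward a repair state, named M1 and M2.

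Total expected counts ran from 18098711 to 28477342 per library. All 7 macrophage markers were detected in all 6 groups, and their sum was lower in the untreated knockout (7024 to 9544 CPM) than in untreated wild type (18160 to 20210 CPM). Without Lyz2 the other 6 summed to 7023 to 9539 and 7480 to 8107 CPM there, and to between 6508 and 10880 CPM in the treated groups. T or NK cell, neutrophil and mast cell or basophil lists summed to at most 2.03, 3.17 and 2.36 CPM (CPM are counts divided by the TMM-scaled library size in units of 1e+06). Rpl13a in the knockout stood at 36% of wild type in untreated cells, 53.6% with IFN and 51.9% with IL4, with exact 2-sided permutation p = 0.1, 0.1 and 0.2, where 0.1 is the smallest p that 3 against 3 libraries allow. Within the knockout groups Rpl13a was highest in libraries 3, 6 and 9, at 400.5, 424.8 and 605.9 CPM. Library 9 lay above wild type IL4 library 7 (597.6 CPM). By edgeR Rpl13a was not called in any single treatment (adjusted p = 0.256 untreated and 0.772 with IFN). Over the mean of the 3 treatments its log2 fold change was -1.11 (edgeR adjusted p = 0.046). Lyz2, which encodes lysozyme, was also lower in the knockout, by a log2 fold change of -11.3 in untreated cells (edgeR adjusted p = 8.65e-08), so loss of Lyz2 and loss of L13a cannot be told apart in any genotype comparison. The treatments were visible in both genotypes, with log2 fold changes of 4.36 and 4.55 for the transcription factor Irf1 on IFN and of 2.58 and 2.51 for the mannose receptor Mrc1 on IL4, in wild type and knockout. Wild type untreated libraries 2 and 3 were closer to each other than other replicate pairs (chi-square per degree of freedom of 5.92, against 49.1 to 175). The 3 libraries of that group may thus not be independent. Of the 9 wild type libraries 5 held transcripts of Y-linked genes, which were at most 0.143 CPM in the knockout libraries. Sex, as read from these transcripts, was thus mixed in wild type only and cannot be fully told apart from genotype. In wild type 1 of 3 untreated libraries held them, and 2 of 3 with IFN and with IL4. The wild type treatment comparisons were thus unbalanced for sex too.

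The RefSeq promoter table (GRCm38.p6) held 7 of the 10 genes, and not Il10, Il15 and Il27. The windows of 2 members are shown because Tnf was the member that moved with both treatments and Tgfb1 the one with the highest level throughout. Each is the 250 bases before the start of the gene, printed 5′ to 3′, for Tnf chr17:35202008-35202257 on the minus strand and for Tgfb1 chr7:25686752-25687001 on the plus strand. Capitals mark TATAAA (the TATA box) and GGGCGG (the GC box) on either strand.
Tnf: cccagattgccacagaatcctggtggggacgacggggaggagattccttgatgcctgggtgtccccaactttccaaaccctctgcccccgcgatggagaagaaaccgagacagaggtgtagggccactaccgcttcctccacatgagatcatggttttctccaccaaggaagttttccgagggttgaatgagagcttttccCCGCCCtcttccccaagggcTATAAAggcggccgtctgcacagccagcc
Tgfb1: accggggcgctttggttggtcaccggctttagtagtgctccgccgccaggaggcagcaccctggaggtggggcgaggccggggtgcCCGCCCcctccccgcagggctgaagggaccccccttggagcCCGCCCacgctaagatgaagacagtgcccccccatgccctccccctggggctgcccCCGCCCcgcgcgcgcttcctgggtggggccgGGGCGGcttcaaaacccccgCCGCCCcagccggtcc

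The 2 windows differed in makeup. The Tnf window held 57.6% G and C, 1 TATA box that began 29 bases before the start and 1 GC box that began 49 bases before it. The Tgfb1 window held 75.2% G and C, 5 GC boxes and no TATA box. Over all 32851 windows of this length in the table the median share of G and C was 52.4%, 12.4% held a TATA box and 32.7% a GC box. Neither window held the GAS motif TTCNNNGAA, the ISRE core (GAAA and GAAA with 2 bases between), the STAT6 motif (TTC and GAA with 4 bases between) or the NF-kappaB consensus, searched on both strands and found in 7.02%, 2.98%, 5.85% and 3.9% of all windows. In the windows of the other 5 genes, the NF-kappaB consensus matched in Il6, 44 bases before the start, and the STAT6 motif in 2 of 3 windows of Il1rn and in both of Il12a. These motifs were chosen after expression values were seen, and a missing match says only that these letters are not in this window.

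To compare the 10 transcripts with each other, the deposited TPM values, which account for gene length, were used. Tgfb1 was the highest in each of the 6 groups, with a mean from 260 ± 14 TPM (SD, n = 3) in the knockout with IFN to 431 ± 46.9 TPM in the knockout with IL4. Tnf was next in untreated and IFN-treated cells, at 34.1 ± 3.47 TPM in untreated wild type and 123 ± 25.4 TPM in wild type with IFN, and its libraries did not overlap those of its neighbours in the order. With IL4 the order below Tgfb1 was not resolved: Il1rn, Il15 and Tnf in wild type stood at 16, 10.1 and 10.1 TPM with overlapping libraries, and Il15, Tnf and Il1rn in the knockout at 13.9, 13.3 and 11.1 TPM, again overlapping.

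Il10 followed Il1rn and Il15 in untreated cells, at 10.5 ± 4.21 TPM in wild type and 13 ± 6.12 TPM in the knockout, without overlap with Il27 below it. Its libraries lay below those of Il1rn and Il15 in wild type, and below those of Il15 but not of Il1rn in the knockout, where Il10 ranged from 6.04 to 17.6 TPM and Il1rn from 10.1 to 28.6 TPM. With IFN, Il27 stood above Il10 in both genotypes, at 14.2 ± 3.02 against 8.81 ± 1.3 TPM in wild type, without overlap. Il1a, Il6, Il12a and Il12b stayed under 1 TPM in every library, and their libraries overlapped in each knockout group, while in wild type Il1a lay clear of the next member in untreated and IFN-treated cells.

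**Figure D1:**
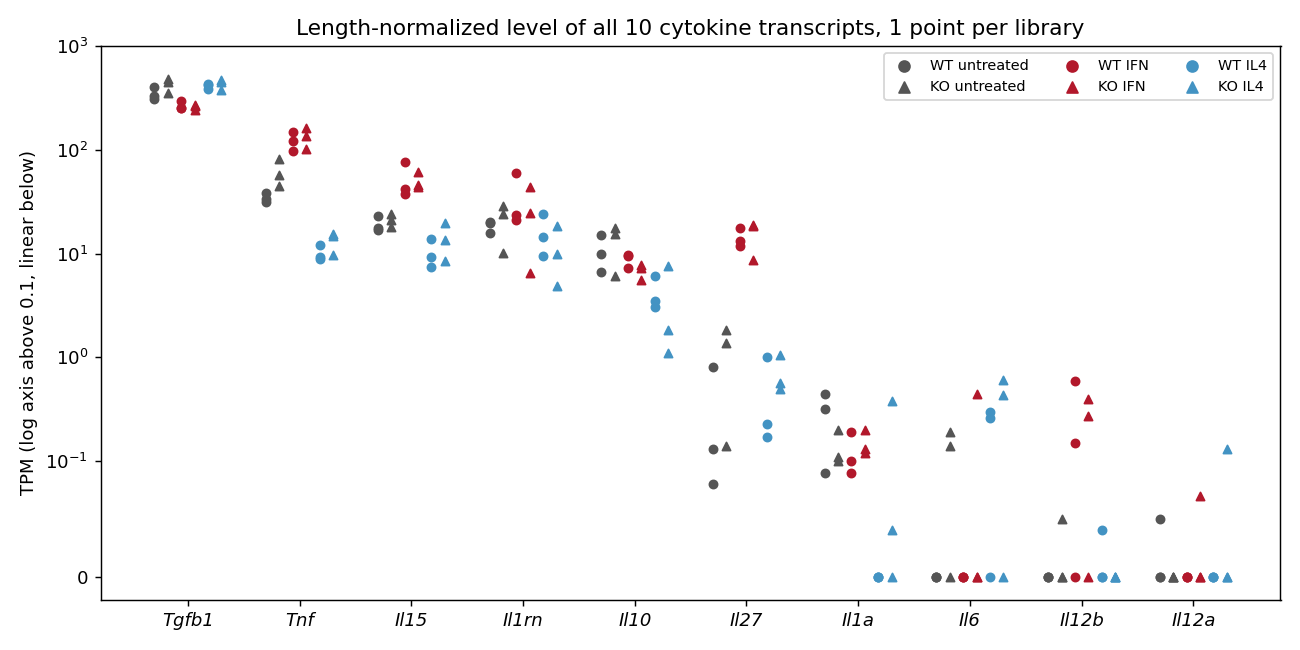
Deposited TPM of the 10 cytokine transcripts on an axis that is logarithmic above 0.1 and linear below, with 1 point per library, circles for wild type, triangles for knockout, and grey, red and blue for untreated, IFN and IL4. Tgfb1 lies highest, Tnf and Il27 lie higher with IFN than without, and Il1a, Il6, Il12b and Il12a lie under 1 TPM throughout.

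Tnf, Il15 and Il27 rose with IFN in both genotypes, and no tested member was called lower. In wild type, 3 of the 6 members that passed the filter on low counts were called at an edgeR adjusted p under 0.05, all higher, where 11.1% of all 12514 genes tested were called higher and 18.6% were called in either direction. In the knockout the 3 called members were again Tnf, Il15 and Il27, against 12.6% of genes called higher and 21.6% in either direction. The median log2 fold change of the 6 members was 1.25 in wild type and 1.09 in the knockout, beside -0.02 and -0.03 over all genes tested. Il27 was near the detection limit in untreated cells and fell under the filter in some fits that held no IFN libraries. Its call as higher was thus partly fixed by the filter, and its place in these counts and medians is no separate support.

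Tnf encodes the trimeric cytokine that acts through Tnfrsf1a and Tnfrsf1b. In wild type, untreated libraries 1, 2 and 3 held 31.1, 28.2 and 30.5 CPM of Tnf, and IFN libraries 4, 5 and 6 held 128, 110 and 104 CPM. In the knockout the untreated libraries held 33.4, 62.8 and 46.9 CPM, and the IFN libraries 164, 137 and 101 CPM. All IFN libraries lay above all untreated ones in each genotype. The log2 fold change was 1.93 (SE 0.24, edgeR adjusted p = 3e-05) in wild type and 1.5 (SE 0.23, adjusted p = 0.000232) in the knockout.

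Il15 encodes a cytokine that supports NK cells and memory T cells and is presented on its receptor Il15ra. Wild type untreated libraries 1, 2 and 3 held 13.5, 11.5 and 11.8 CPM of Il15, and IFN libraries 4, 5 and 6 held 23.1, 24.3 and 52.1 CPM. The knockout untreated libraries held 11.2, 12.1 and 9.5 CPM, and the IFN libraries 30.4, 41 and 28.8 CPM. No library overlapped, though wild type IFN library 6 was more than 2 times either of the other IFN libraries. The log2 fold change was 1.42 (SE 0.31, adjusted p = 0.00359) in wild type and 1.62 (SE 0.31, adjusted p = 0.00134) in the knockout, by edgeR. Without wild type IFN library 6 the wild type value was 0.95 (adjusted p = 0.024).

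Il27 encodes the p28 subunit, which pairs with the product of Ebi3. It was near the detection limit in untreated cells, at 0.385, 0.0444 and 0.0707 CPM in wild type libraries 1, 2 and 3 and 0.783, 0.62 and 0.0659 CPM in the knockout. With IFN it reached 6.56, 9.25 and 7.28 CPM in wild type libraries 4, 5 and 6 and 11, 10.7 and 4.99 CPM in the knockout, clear of all untreated libraries. The log2 fold change was 5.36 (SE 0.57, edgeR adjusted p = 1.82e-06) in wild type and 4.23 (SE 0.48, adjusted p = 3.12e-06) in the knockout. The size rested on the few untreated counts: in wild type it was 6.88 without untreated library 1, and in the knockout 4.87 and 3.62 without untreated library 1 or 3. Exons of Il27 overlap those of Apobr on the other strand, and the sources do not say whether counting used strand, so Il27 is uncertain to that extent. Apobr, named after its values were seen, had log2 fold changes of 0.27 (wild type) and -0.20 (knockout) with IFN, neither called.

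Il10, Il1rn and Tgfb1, the members that restrain inflammation, did not pass the test with IFN. Il10 stood at 7.26 ± 3.16 CPM in untreated and 6.48 ± 1.46 CPM in IFN-treated wild type cells (SD, n = 3), with a log2 fold change of -0.15 (SE 0.52), and in the knockout at 7.87 ± 3.83 and 5.32 ± 0.861 CPM. Il1rn had means of 19.5 CPM untreated and 41.7 CPM with IFN in wild type, where the IFN libraries spread from 21.4 to 77.9 CPM. Its log2 fold change of 1.09 (SE 0.67) had an edgeR adjusted p of 0.295. Tgfb1 libraries did not overlap between untreated and IFN in either genotype, at 379 to 451 against 299 to 365 CPM in wild type and 394 to 505 against 326 to 374 CPM in the knockout. Its log2 fold changes were -0.27 (SE 0.14, adjusted p = 0.215) and -0.35 (SE 0.14, adjusted p = 0.0946). Marker genes of dendritic cells also moved with IFN: the summed level of that 7-gene list was 8.44 to 11.7 CPM in untreated wild type and 47.6 to 129 CPM with IFN, with Siglech at 0 in both and Flt3 at 0 with IFN. In the knockout it was 15.4 to 20.4 CPM untreated and 52.6 to 110 CPM with IFN. The 8 fibroblast markers summed to 487 to 562 CPM in untreated wild type and 50 to 97.5 CPM with IFN, with Lum at 0 in both, and overlapped in the knockout (53.5 to 204 and 22.1 to 340 CPM). Their part in the responses of Tnf, Il15 and Il27 was not tested, and in bulk RNA fewer cells of a type and less RNA per cell cannot be told apart.

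**Figure D2:**
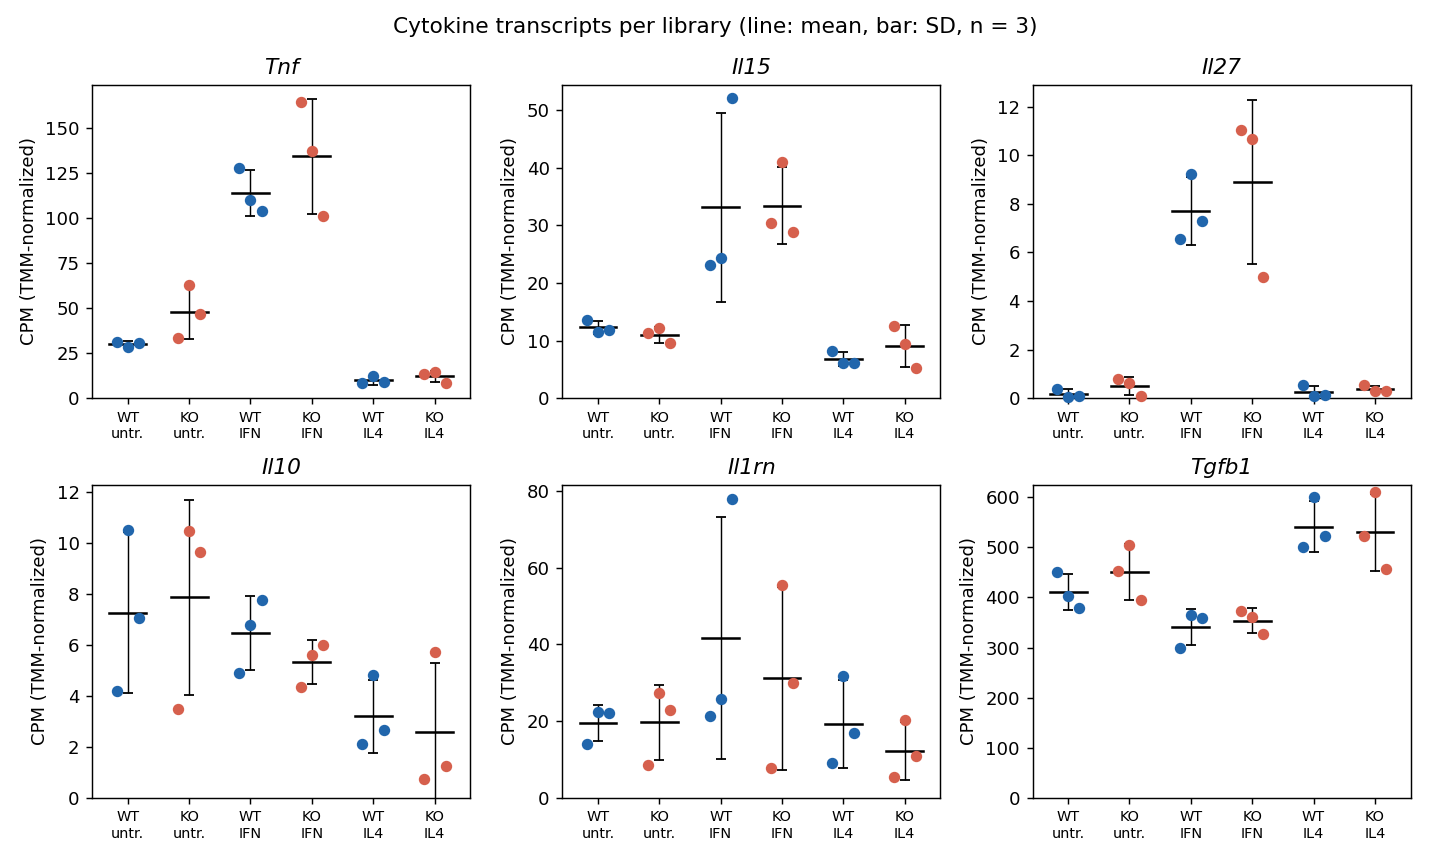
CPM of the 6 members that passed the filter, with blue points for wild type libraries and red points for knockout libraries, a line for the group mean and a bar for the SD (n = 3, cut at 0 for Il10 in the knockout with IL4). Tnf, Il15 and Il27 libraries with IFN lie above all untreated libraries of their genotype, and Tnf libraries with IL4 lie below them.

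Tnf fell with IL4 in both genotypes, and the other members did not pass the test. In wild type 1 of the 6 tested members was called, lower, against 3.53% of genes called lower and 8.49% in either direction. In the knockout the 1 called member was again Tnf, against 4.12% of genes called lower and 9.48% in either direction. Tnf held 8.11, 12.5 and 8.83 CPM in wild type libraries 7, 8 and 9 and 13.3, 14.2 and 8.52 CPM in the knockout, below all untreated libraries of the same genotype. Its log2 fold change was -1.61 (SE 0.25, edgeR adjusted p = 0.000701) in wild type and -1.98 (SE 0.25, adjusted p = 0.000124) in the knockout. With IL4 the fibroblast list summed to 127 to 253 CPM in wild type, below its untreated range, and to 89.4 to 478 CPM in the knockout, overlapping it, with Lum at 0 in both. The dendritic cell list summed to 16.3 to 30.8 CPM in wild type, with Siglech at 0, and 37.9 to 51.8 CPM in the knockout, above the untreated range in both, and the part of either list in the Tnf values was not tested.

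Il15 with IL4 stood at 8.11, 6.08 and 6.11 CPM in wild type, below its 3 untreated libraries, with a log2 fold change of -0.86 (SE 0.33, edgeR adjusted p = 0.137). In the knockout the libraries overlapped and the value was -0.26 (SE 0.32, adjusted p = 0.72). In wild type Tgfb1 stood at 502, 600 and 523 CPM against 379 to 451 CPM untreated, without overlap, and its log2 fold change of 0.40 (SE 0.14, edgeR adjusted p = 0.105) missed the threshold. In the knockout it was 0.23 (SE 0.14, adjusted p = 0.372) with overlap.

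Il10 was at 2.11, 4.83 and 2.68 CPM in wild type libraries 7, 8 and 9 and at 0.733, 5.72 and 1.27 CPM in the knockout, where library 8 lay far above the other IL4 libraries. Its log2 fold change was -1.18 (SE 0.56, edgeR adjusted p = 0.248) in wild type and -1.62 (SE 0.58, adjusted p = 0.0956) in the knockout. Without knockout IL4 library 8 the latter was -3.00 (adjusted p = 0.00938), and without knockout untreated library 1 it was -2.01 (adjusted p = 0.0405), so that either of these libraries decides whether Il10 is called. Il1rn and Il27 were not called, with log2 fold changes of -0.02 and 0.50 in wild type and -0.69 and -0.33 in the knockout.

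**Figure D3:**
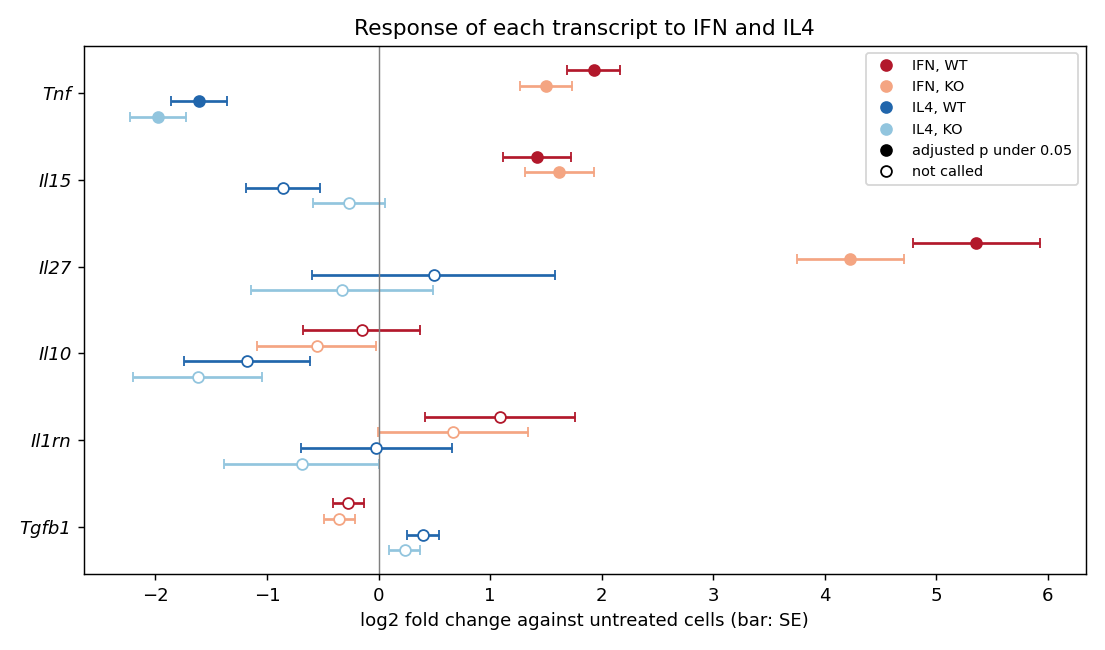
Log2 fold changes against untreated cells for the 6 tested members, with bars for the SE, red shades for IFN and blue shades for IL4, and filled points at an edgeR adjusted p under 0.05. Filled points are those of Tnf, Il15 and Il27 with IFN and of Tnf with IL4.

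No member differed between knockout and wild type at the threshold in any treatment. The share of all genes called was 0.0799% in untreated cells, 0.0639% with IFN, 0.0639% with IL4 and 0.392% over the mean of the treatments, and 0 of 6 members is no departure from such shares. Tnf was not called in untreated cells, though its knockout libraries lay above those of wild type (33.4 to 62.8 against 28.2 to 31.1 CPM). The share of all genes without such overlap was not computed, and wild type libraries 2 and 3 may not be independent. The log2 fold change of Tnf was 0.67 (SE 0.23, edgeR unadjusted p = 0.0119, adjusted p = 0.459). Its 95% interval (normal approximation from the SE) ran from 0.21 to 1.13, and without knockout library 2 the value was 0.42. In this comparison 944 of 12514 genes tested had an unadjusted edgeR p under 0.05. With IFN and IL4 the libraries overlapped and Tnf stood at 0.24 (SE 0.23) and 0.30 (SE 0.26). Over the mean of the 3 treatments it was 0.40 (SE 0.14, unadjusted p = 0.0112, adjusted p = 0.3). In these untreated cells the fibroblast list was lower in the knockout than in wild type and the dendritic cell list was higher, without overlap, with Lum and Siglech at 0 in wild type and no marker of either list at 0 in the knockout. Their part in the Tnf difference was not tested.

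The intervals of the other members, by the same normal approximation, are narrower than the test itself would give, so they are only a rough range. For Tgfb1 the 95% interval of the knockout against wild type ran from -0.15 to 0.41 in untreated cells, -0.23 to 0.33 with IFN and -0.31 to 0.25 with IL4, on the log2 scale. For Il15 it was -0.79 to 0.44, -0.56 to 0.60 and -0.24 to 1.09. For Il10 the untreated interval was -0.86 to 1.10, for Il1rn -1.31 to 1.33 and for Il27 -0.43 to 3.13, and each of these holds a 2-fold rise. Il10 had -1.38 to 0.81 with IFN and -1.59 to 0.94 with IL4. Il1rn had -1.71 to 0.88 with IFN and -2.04 to 0.72 with IL4. These intervals of Il10 and Il1rn hold a 2-fold fall. Il27 had -0.44 to 0.87 with IFN and -1.38 to 2.44 with IL4.

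**Figure D4:**
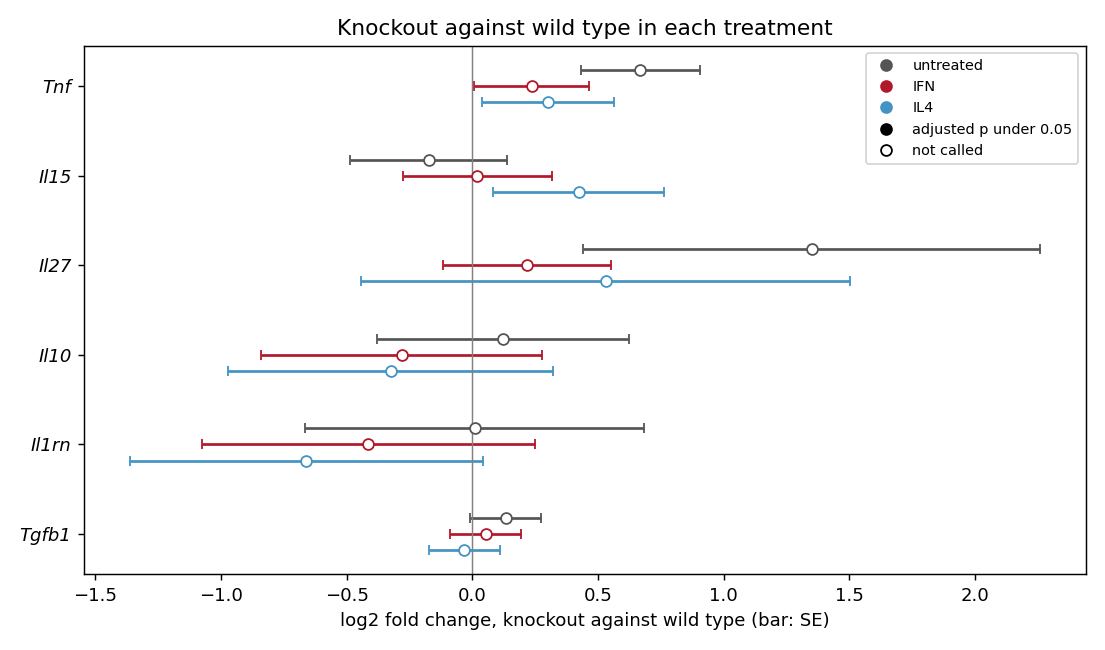
Log2 fold changes of the knockout against wild type for the 6 tested members in untreated, IFN-treated and IL4-treated cells, with bars for the SE. No point is filled, as no member passed an edgeR adjusted p of 0.05, and Tnf untreated lies at 0.67.

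The responses were compared between genotypes by an interaction term. The IFN response of knockout minus wild type was -0.43 (SE 0.33) for Tnf, 0.19 (SE 0.43) for Il15 and -1.13 (SE 0.97) for Il27 on the log2 scale, and the IL4 response was -0.37 (SE 0.35) for Tnf, all with an adjusted p of 1. Over all 12514 genes edgeR called 0% for either interaction, with 617 and 249 genes at an unadjusted p under 0.05 and 26 and 1 called by DESeq2. Il10 (-0.40 and -0.45), Il1rn (-0.42 and -0.67) and Tgfb1 (-0.08 and -0.17) had differences no larger than 1 SE. These results do not show that the responses were equal. In simulated data, 10.4% of 2-fold and 65.2% of 4-fold changes in the IFN interaction were recovered.

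The other 4 members stayed below the filter. Il6 had 24 counts in all, in 7 of 18 libraries and at most 6 in one, knockout IL4 library 9. Il12a had 4 counts in 3 libraries, and Il1a had 64 counts in 14 libraries, at most 11 in one. Il12b, the shared subunit of interleukins 12 and 23, had 32 counts in 6 libraries: 0 in untreated wild type and 15 with IFN, and in the knockout 1 and 15. Pooled Il12b with IFN in wild type stood 7.24-fold above a floor of 3 counts over the untreated group. This allows for no counting error in the 15 counts, and 12 of them came from library 6. In the knockout, where the untreated group held 1 count and no floor was used, the ratio was 21.8. Its 95% interval from 3.36 to 919 covers counting error only, so the value against the floor and the ratio are not on the same footing. Il1a was listed at 0 counts in wild type with IL4 and held 24 untreated, 6.39-fold above the same kind of floor, again with no counting error allowed for. In the knockout it held 3.01, 2 and 6 counts untreated and 10, 1 and 0 with IL4, which overlap. Its exons overlap those of Gm14023 on the other strand, so its counts are uncertain too.

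Il10 and Il1rn varied together between replicates. Both were lowest in library 1, 4 or 7 of all 6 groups, while 6.8% of tested genes were lowest there in all 6 groups and 10.2% were highest. Il10 stood at 57.9%, 75.5% and 65.9% of its group mean in wild type libraries 1, 4 and 7 and at 44.1%, 81.8% and 28.5% in the knockout. For Il1rn these values were 72.1%, 51.3% and 47.8% in wild type and 44%, 24.8% and 43.5% in the knockout. Its highest library exceeded its lowest by 7.19 times in the knockout with IFN. For Tgfb1 the same ratio stayed between 1.15 and 1.33 in all groups.

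**Figure D5:**
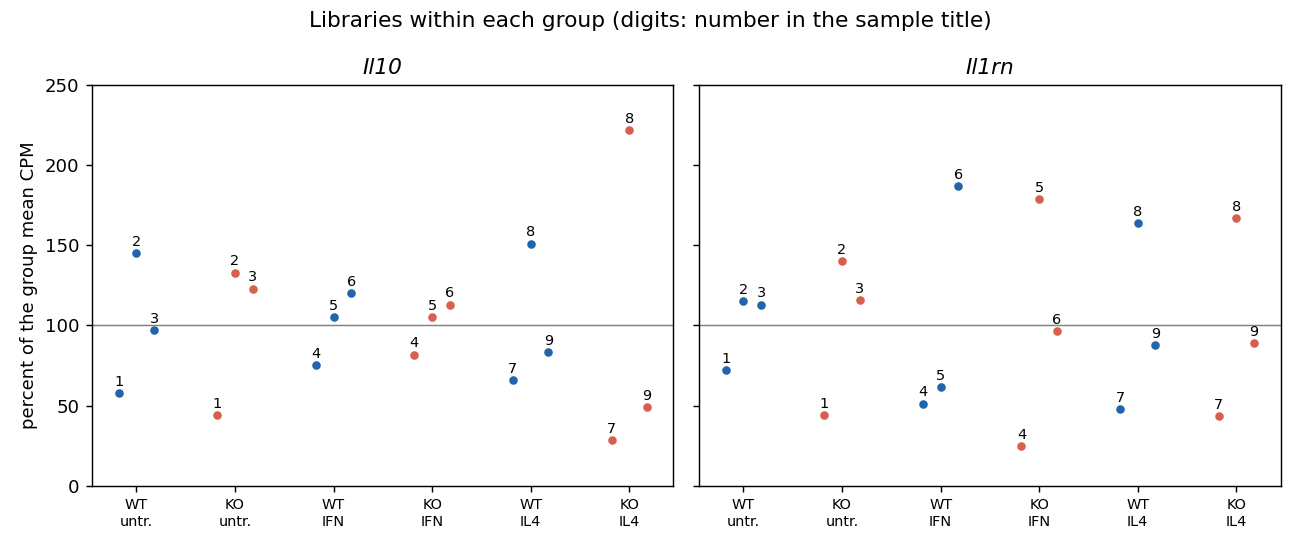
Il10 and Il1rn in each library as a percent of the mean CPM of its group, in blue for wild type and red for knockout, with the number in the sample title beside each point. Libraries 1, 4 and 7 lie below 100% for both genes in every group.

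The ratio of Tnf to Il10 in TPM, an index chosen after values were seen and given without a test, was 5.74, 2.08 and 3.36 in untreated wild type and 20.4, 12.6 and 10.4 with IFN. In the knockout it was 7.47, 4.66 and 3.76 untreated and 29.3, 19 and 13.1 with IFN, so IFN libraries lay above untreated ones in both genotypes. With IL4 it was 2.98, 2 and 2.56 in wild type and 14, 1.94 and 5.21 in the knockout, overlapping untreated libraries in both.

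Receptors of these cytokines were examined as a list of 18 genes, 17 of which were tested. With IFN 5 rose and 2 fell in wild type and 5 rose and 3 fell in the knockout, or 41.2% and 47.1% called, beside 18.6% and 21.6% of all genes tested. The list did not rise as a whole, with median log2 fold changes of -0.06 and -0.23, beside -0.02 and -0.03 over all genes. Il10rb (-0.57 and -0.49) and Il1r1 (-1.85 and -1.62, at most 1.46 CPM) fell in both genotypes, and Il27ra fell in the knockout (-1.42). Il12rb1, a chain of the interleukin 12 receptor, went from 0.104 ± 0.113 to 99.4 ± 8.28 CPM in wild type and from 0.372 ± 0.256 to 80 ± 13.1 CPM in the knockout (SD, n = 3). It passed the filter on low counts through its IFN libraries, so its call was partly fixed by that. Il15ra, which presents interleukin 15, rose by 2.62 and 3.11 on the log2 scale, Il12rb2 by 2.84 and 2.70, and Tnfrsf1a, the main receptor of Tnf, by 1.22 and 1.2, in wild type and knockout. With IL4 3 rose and none fell in wild type and 2 rose in the knockout (17.6% and 11.8%, beside 8.49% and 9.48% of all genes), Il27ra by 2.77 and 2.06 and Il1rap by 0.85 and 0.92. No receptor was called between untreated genotypes, and the median log2 fold change of the list was 0.24, beside 0.01 over all genes tested.

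Of 15 partner subunits and processing genes 14 were tested. With IFN 2 rose in each genotype: Rhbdf2, which helps the protease Adam17 release Tnf, by 1.15 and 1.09, and Capn1, a calpain protease, by 1.00 and 1.17. This was 14.3% of the list, near or below the shares of all genes given above. With IL4 1 rose and 1 fell in wild type and 1 rose and 2 fell in the knockout. This was 14.3% and 21.4% called, beside 8.49% and 9.48% of all genes. The gene that rose was Itgb8, another integrin chain, by 6.18 and 3.85, to group means of only 1.27 and 1.48 CPM. With so low an untreated level it may have passed the filter on low counts through its IL4 libraries. Its call may thus be partly fixed by the filter, and its place in these shares is no separate support. Itgav, an integrin chain that activates latent Tgfb1, fell by 0.84 and 0.92. Adam17 fell by 0.64 in the knockout and stood at 294 ± 34.7 and 228 ± 11 CPM untreated and with IL4 in wild type, where it was not called.

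Among 32 other cytokines 20 were tested, and with IFN 5 rose and 2 fell in each genotype. This was 35% called, beside 18.6% and 21.6% of all genes. Il16 was among those that fell (-1.47 and -1.13). Tnfsf10 went from 1.23 to 63.6 CPM in wild type and from 0.517 to 70.3 CPM in the knockout, and Tnfsf13b rose by 3.25 and 4.46 on the log2 scale. Il18 rose by 1.41 and 2.09, and Il18bp, its soluble inhibitor, by 5.13 and 5.38. With IL4 1 rose and 3 fell in wild type and 2 rose and 3 fell in the knockout. This was 20% and 25% called, beside 8.49% and 9.48% of all genes. Il16 fell by 1.60 and 1.51, Tnfsf14 fell by 2.08 and 2.51, and Il18 fell by 1.31 in wild type and stood at 3.54 ± 0.257 and 3.65 ± 0.433 CPM untreated and with IL4 in the knockout, where it was not called.

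The NF-kappaB pathway, which drives Tnf and Il6 transcription, was represented by 24 tested genes. With IL4 4 fell and 1 rose in wild type and 6 fell and 1 rose in the knockout. This was 20.8% and 29.2% called, beside 8.49% and 9.48% of all genes. Relb, a subunit (-1.10 and -1.29), and Nfkbiz, a nuclear regulator of Il6 (-2.51 and -2.43), were among those that fell. The inhibitor Nfkbia fell as well (-0.94 and -0.81), and Ticam1 rose (0.725 and 0.557). With IFN 4 rose and 1 fell in wild type, 20.8% of the list beside 18.6% of all genes, and 4 rose and 4 fell in the knockout, 33.3% beside 21.6%. Myd88, the adaptor of toll-like receptors, rose by 1.08 and 1.30. The median log2 fold change of the list stayed between -0.13 and 0.14 in the 4 treatment comparisons. Of 14 RNA-binding regulators of cytokine transcripts, 1 rose and 1 fell with IFN in each genotype. This was 14.3% called, beside 18.6% and 21.6% of all genes. Arid5a, which stabilizes Il6 mRNA, rose by 2.58 and 2.66, while Il6 itself was at 0 counts in all 3 wild type IFN libraries. Rc3h1 fell in wild type (-0.565) and Zc3h12c in the knockout (-1.04). With IL4 0 were called in wild type, beside 8.49% of all genes. In the knockout 2 fell, Zfp36l2 (-0.687) and Rc3h2 (-0.432), or 14.3% beside 9.48%.

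Genes most like each member were sought by Pearson correlation of log2 CPM over the 18 libraries, among genes whose mean reached 5 CPM (9454 or, for Il27, 9455), as a description over points that share treatment groups. Closest to Tnf were Lpin2 (0.974) and Fam102a (0.967), to Il15 Aftph (0.978) and Trim12a (0.964), and to Il27 Tgm2 (0.975) and Kif3b (0.975). Il10 was closest to Ywhah (0.884) and Coro1a (0.867), Il1rn to Tbc1d10b (0.865) and Rnh1 (0.853), and Tgfb1 to Fam63a (0.953) and Hlx (0.941).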

How the data were processed

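Per the labels, poly-A RNA of macrophages was sequenced on an Illumina instrument. The authors deposited expected counts and TPM per gene, made with RSEM 1.2.3 and Bowtie 0.12.8 on mm10, per the submitters' processing notes. The deposited file of median-normalized TPM was not used. Of the expected counts 21.5% were not whole, and all were rounded. Columns matching no sample numbered 0. The filterByExpr rule, with a minimum of 10 counts turned into CPM and required in several libraries, left 12514 genes in the tests. A gene above 10 counts in only 1 library could thus be left out. After TMM scaling, edgeR 4.0.16 (R 4.3.3) fitted a robust quasi-likelihood model to the 18 libraries, with a term for each group, in 10 comparisons, with Benjamini-Hochberg adjustment within each and calls at 0.05. SE is the absolute log2 fold change divided by the root of F. The biological coefficient of variation was 0.301. The quasi-dispersion was not estimated in the legacy form; this setting was chosen because it gave the number of genotype calls of an earlier analysis, and the legacy form was run beside it. Alternatives used DESeq2 1.42.0 and limma 3.58.1 on log2(TPM + 1) and log2(TPM + 0.1), among others. Members, gene lists and markers were chosen with earlier results of these data known. Named list genes were called, reached a mean of 5 CPM and had no overlap of the compared groups, at most 4 per list and comparison by lowest p, and the text gives a selection of them. Outside this rule, Il10rb, Il1r1 and Itgb8, and Il27ra and Il16 with IFN, were named because they moved the other way. Rpl13a, Lyz2, Irf1, Cxcl10, Arg1 and Mrc1 were set as controls. Marker lists that are not described individually (B cell and bone-forming cell) reached at most 11 and 54.8 CPM. Genome positions are on GRCm38. The scripts were tested on simulated data. The replicate number correlated deviations of same-numbered libraries of the 2 genotypes at 0.296, 0.135 and 0.276 with IFN and at 0.586, 0.323 and 0.449 with IL4, over all genes tested, so the numbers may pair libraries in those treatments, from the data and not from the labels. In untreated cells the values were 0.597, 0.0417 and 0.358, and 1 pair was near 0. All values printed are from the fit without a block, and the block was an alternative.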

Additional observations from a re-analysis of the deposited data

How the results depend on the processing

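Across the alternatives, 1132 member results were recomputed and 1123 stayed on the same side of the threshold. All 128 results for called members stayed called, and 9 uncalled ones became called. With IL4 in the knockout, 2 members were called (Il10 added) with limma on log2(TPM + 1) (Il10 at -1.79) and on log2(TPM + 0.1) (-2.18), and 1 to 2 when single libraries were left out; without knockout untreated library 1 Il10 was at -2.01. In wild type with IL4, 2 were called (Il15 added, -0.86) when only the groups compared were fitted. Tgfb1 with IFN in the knockout was called with DESeq2 (-0.36), limma (-0.71 at both pseudocounts) and without knockout untreated library 3 (-0.47). On the TPM scale the median of all genes shifted by -0.31 and -0.39 in that comparison, so the Tgfb1 value relative to it is smaller. The cause of these changes was not tested.

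With the title number as a replicate block, no member's call changed, and Il1rn in untreated knockout against wild type moved to -0.0913. Genes called rose with it from 10 to 96 in untreated cells, from 8 to 24 with IFN and from 8 to 27 with IL4. Over the mean of the treatments they rose from 49 to 246. The treatment comparisons share no title numbers, so no block fit was made for them. However, 6.8% of tested genes were lowest and 10.2% highest in libraries 1, 4 and 7 in all 6 groups. Libraries may thus be paired across treatments by their place in the group, which the treatment comparisons ignored.

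Signs changed in these uncalled results. With the Y-linked covariate, Il10 was at 0.0314 (IFN, wild type), Il15 at -0.15 (knockout against wild type, IFN) and -0.081 (mean of treatments), Il1rn at 0.32 (IL4, wild type) and -0.23 (knockout against wild type, untreated), and Tgfb1 at 0.00635 (knockout against wild type, IL4). With limma at the pseudocounts 1 and 0.1, the Il15 IFN interaction was at -0.119 and -0.124, Il15 untreated at 0.128 and 0.134, Tgfb1 with IFN at -0.0388 and -0.0389 and Tgfb1 with IL4 at 0.054 and 0.0541, each of knockout against wild type. Leaving out libraries 3, 6 and 9, chosen after seeing the data, put Il10 untreated at -0.0493, the Il1rn IFN interaction at 0.38, Il1rn with IFN at 0.40, Tgfb1 with IL4 at 0.0473 and Il1rn on IL4 in wild type at 0.165. Leaving out libraries 1, 4 and 7, also chosen after seeing the data, put the Il15 IFN interaction at -0.0124, Il15 with IFN at -0.129, Il27 with IFN at -0.0877, Tgfb1 with IFN at -0.0865 and Il1rn on IL4 in wild type at 0.11.

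Leaving out single libraries gave ranges that crossed 0 for these uncalled results, as lowest and highest. For treatments: Il10 IFN wild type -0.46 to 0.21, Il1rn IFN knockout -0.0618 to 1.10, Il1rn IL4 wild type -0.57 to 0.30, Il27 IL4 knockout -0.92 to 0.33 and Il27 IL4 wild type -0.61 to 2.02. For knockout against wild type: Il10 IL4 -1.68 to 0.17, Il10 mean -0.60 to 0.00303, Il10 untreated -0.16 to 0.50, Il15 IFN -0.19 to 0.50, Il15 mean -0.00845 to 0.25, Il1rn IFN -1.15 to 0.40, Il1rn untreated -0.30 to 0.38, Tgfb1 IFN -0.0371 to 0.119 and Tgfb1 IL4 -0.137 to 0.0675. For interactions: Il10 IL4 -1.83 to 0.037, Il15 IFN -0.0192 to 0.67, Il1rn IFN -1.16 to 0.39, Il27 IL4 -2.35 to 0.28 and Tgfb1 IFN -0.179 to 0.00809.

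Counts of all genes moved by more than 1.5 times in several settings. In untreated knockout against wild type 10 genes became 83 with DESeq2, 39 with the Y-linked covariate, 4 with the legacy quasi-dispersion, 5 and 1 without libraries 1, 4, 7 or 3, 6, 9 and 1 with the groups compared. With IFN 8 became 41, 5, 1, 2 and 1 under DESeq2, the covariate, those 2 library sets and the groups compared, and with IL4 8 became 30, 3, 1, 1 and 1. The mean of treatments went from 49 to 196 with DESeq2, 32 without libraries 1, 4 and 7 and 157 without 3, 6 and 9. Treatment comparisons called fewer genes without libraries 3, 6 and 9, where IFN went from 2332 to 1363 in wild type and 2697 to 1611 in the knockout and IL4 from 1063 to 396 and 1186 to 345, and with the groups compared IL4 in the knockout gave 422. Il27 fell under the filter, and so had no value, with the groups compared for IL4 in wild type and for knockout against wild type with IL4. With 3 libraries a group, differences between genotypes may be missed, also large ones. In simulated data, 5.97% of 1.5-fold, 49.3% of 2-fold and 72.7% of 4-fold changes between untreated genotypes were recovered. In addition, 4 members were left out of the tests by the filter on low counts. Il27 with IFN was at 3.53 in wild type and 2.97 in the knockout with limma on log2(TPM + 1), a scale that understates changes of low genes, and in wild type between 4.98 and 6.88 when single libraries were left out.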
